A study of Mus musculus with 6 samples.

Results

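The genes of the matrix metalloproteinases (MMP), the ADAMTS proteases, the ADAMTS-like proteins (ADAMTSL) and the tissue inhibitors of metalloproteinases (TIMP) were examined in RNA of the mouse aortic valve. Their members were taken by gene symbol and numbered 51 of the 23107 genes listed. Of these, 23 were MMP genes, 19 ADAMTS genes, 5 ADAMTSL genes and 4 TIMP genes. The study asked how the valve changes when the type I receptor Acvr1, which carries bone morphogenetic protein signals, is constantly active. It sequenced 3 control and 3 mutant libraries from aortic valves of outbred mice aged 4 months. The mutants (Acvr1:Nfatc1Cre) carried a Cre-dependent, constitutively active Acvr1 transgene and a Cre knocked into the Nfatc1 locus. That Cre recombines in the endocardium and its derivatives and in cells of the leaflet-wall junction. Part of each mutant sample is therefore made of cells in which the transgene was not recombined. The controls are labelled wild type, while the methods of the study also allow littermates with the transgene alone or with Cre alone as controls. The methods speak in general of independent samples in each assay. For these libraries neither source says which control genotypes were sequenced, whether valves were pooled, or whether each came from a separate animal, and p-values may therefore measure only the spread between these libraries.

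Valve leaflets are layers of collagen, proteoglycan and elastic fibres kept by interstitial cells under a sheet of endothelium. MMPs are zinc proteases, secreted or bound to the membrane, that are made as inactive precursors and cut collagens, gelatin, elastin and other proteins of the matrix. ADAMTS proteases are secreted relatives that cut proteoglycans such as versican and aggrecan, trim procollagens, or act on fibrillin and von Willebrand factor. ADAMTSL proteins have the accessory domains of that family but no protease domain, and several bind fibrillin microfibrils. TIMPs bind the active site of these enzymes and block it, and TIMP3 is the inhibitor that stays attached to the matrix.

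Library totals were 46180666 to 55728854 estimated counts in the controls and 32218343 to 53129459 in the mutants. Levels are given as CPM, the read count of a gene scaled to the size of its library after TMM adjustment, and per kilobase of merged exons where genes are compared with each other. All 8 markers of valve interstitial cells and fibroblasts and all 8 of endothelium and endocardium were at 1 CPM or more in every library. Cardiac muscle markers were abundant as well and uneven, with summed CPM of 32000, 12100 and 37400 in the controls, always listed from replicate 1 to 3, and 39000, 17700 and 27700 in the mutants. Smooth muscle markers summed to 7780, 14000 and 6920 CPM in the controls and 3860, 6460 and 7030 CPM in the mutants, highest in control replicate 2 and lowest in mutant replicate 1. The libraries also differed in sex-linked reads. Control replicate 1 and mutant replicate 1 held Xist, the RNA of the inactive X chromosome, at 54.5 and 59.1 CPM with the Y-linked Ddx3y at 0.261 and 0.347 CPM. In the other 4 libraries Ddx3y was at 76.9 to 104 CPM, and in 2 of those, mutant replicates 2 and 3, Xist was present too at 19.7 and 11.6 CPM, against 0.297 and 0.629 CPM in control replicates 2 and 3. Acvr1 itself was at 49.1, 60.5 and 67.2 CPM in the controls and 56.5, 57.8 and 49.7 CPM in the mutants. The sources used here do not say whether transgene reads count toward it, so these values do not check the genotype labels. In bulk RNA of this kind, fewer cells of a type and less RNA per cell cannot be told apart.

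The chromosome 9 group of MMP genes is described first, since its members shared a position and ranged from no count to abundant. It holds 10 of the 23 MMP genes within 427.1 kb (GRCm38), from Mmp13 at chr9:7272514-7283331 to the end of Mmp7 at position 7699585. All 4 members with no count in any library lay here: Mmp1a and Mmp1b, the mouse interstitial collagenases, Mmp7 (matrilysin) and Mmp20 (enamelysin of the tooth). Mmp10 (stromelysin-2) had a single count in 1 library. The remaining 5, Mmp3, Mmp13, Mmp12, Mmp27 and Mmp8, passed the filter of at least 10 counts in at least 3 libraries, against 11 of the 13 MMP genes elsewhere. A count of 0 allows up to 0.056 to 0.0938 CPM in these libraries (3 counts, counting error only), so such genes were not detectable at this depth. By mean level over the libraries, Mmp3 (stromelysin-1, chr9:7445822-7455975) made up 84.4% of the summed level of the cluster, 29.5 CPM per kilobase. Its own level ran from 4.27 CPM per kilobase in control replicate 3 to 46.3 in mutant replicate 1, so this share differed between libraries.

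**Figure D1:**
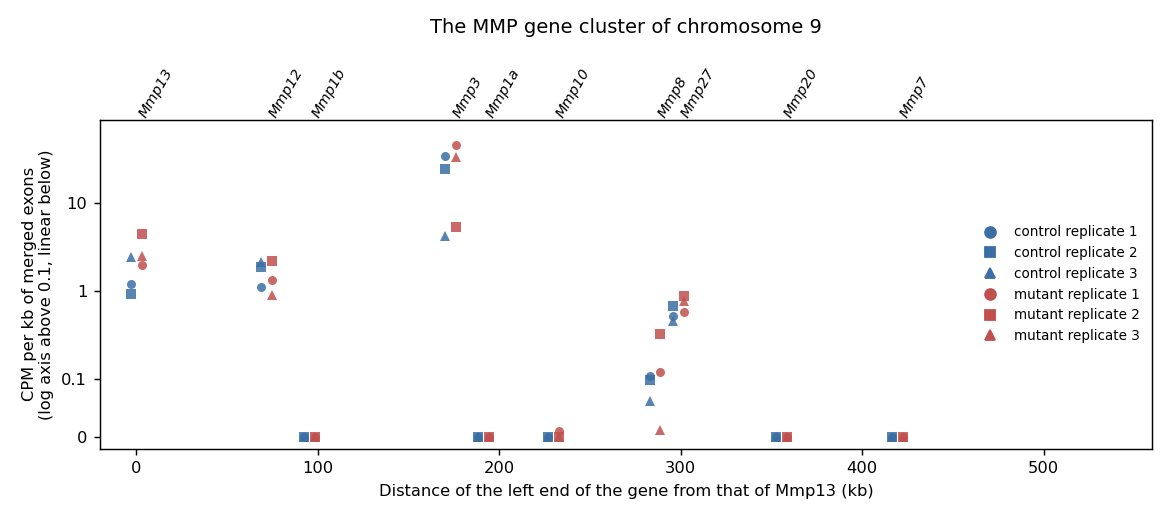
Level of each of the 10 MMP genes of the chromosome 9 cluster in CPM per kilobase (vertical axis, logarithmic above 0.1 and linear below) against its distance from Mmp13 in kb (horizontal axis), with 1 point per library, controls and mutants in different colours. Mmp3 stands highest and the 4 genes without counts lie at 0.

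The starts of these genes are shown because some expressed and some undetected members carried the same short motifs. RefSeq promoter windows (GRCm38.p6) were matched by symbol for 36 of the 51 members and cover all 10 genes of the cluster. In the 250 bases before the start, TGAGTCA or its reverse complement TGACTCA, the letters of an AP-1 site, occurred in 6 of the 10 cluster windows, in 0 of the 26 other windows and in 4.46% of 32851 windows of all genes. TATAAA on either strand occurred in 7 of the 10 and in 3 of the 26 others, against 12.4% of all windows. Both stood in 6 of the 10 against 0.721% of all windows, and no 2 matches overlapped. The 6 with both were Mmp3, Mmp13, Mmp10, Mmp1a, Mmp1b and Mmp7, and Mmp20 held TATAAA alone. The expressed Mmp12, Mmp27 and Mmp8 held neither. The ratio of observed to expected CpG had a median of 0.05 in the cluster, 0.63 in the 26 other windows and 0.37 in all windows. The last 100 bases before the start are given 5′ to 3′ on the gene's strand, with these motifs in capitals, for 2 cluster genes that were read in every library (Mmp3, chr9:7445722-7445821, and Mmp13, chr9:7272414-7272513) and 3 with 0 or 1 counts (Mmp10, chr9:7502242-7502341, Mmp1a, chr9:7464041-7464140, and Mmp7, chr9:7691990-7692089), all on the plus strand. Timp2 (chr11:118355412-118355511, minus strand) and Timp3 (chr10:86300312-86300411, plus strand), the members of highest level, follow for contrast and hold neither motif in this stretch.
Mmp3: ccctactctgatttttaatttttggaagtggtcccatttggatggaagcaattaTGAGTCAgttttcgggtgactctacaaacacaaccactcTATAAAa
Mmp13: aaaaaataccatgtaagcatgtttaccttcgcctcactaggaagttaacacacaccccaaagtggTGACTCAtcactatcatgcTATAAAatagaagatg
Mmp10: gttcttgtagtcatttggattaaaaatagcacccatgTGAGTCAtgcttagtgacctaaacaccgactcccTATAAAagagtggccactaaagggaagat
Mmp1a: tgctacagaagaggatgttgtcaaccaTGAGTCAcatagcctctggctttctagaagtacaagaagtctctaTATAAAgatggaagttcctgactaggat
Mmp7: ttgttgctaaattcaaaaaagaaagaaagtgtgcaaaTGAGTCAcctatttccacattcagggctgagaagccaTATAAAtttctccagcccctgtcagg
Timp2: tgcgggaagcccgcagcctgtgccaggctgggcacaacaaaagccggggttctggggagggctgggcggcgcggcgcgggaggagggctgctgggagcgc
Timp3: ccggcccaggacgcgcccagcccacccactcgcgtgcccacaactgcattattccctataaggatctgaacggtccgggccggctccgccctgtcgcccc
The AP-1 letters began 46 bases before the start in Mmp3, 35 in Mmp13, 63 in Mmp10, 73 in Mmp1a and 63 in Mmp7. Mmp3 and Mmp13 were read in every library, and Mmp10, Mmp1a and Mmp7 were at or near 0, with the same letters in the same stretch. A match of letters is a description and not evidence of binding. Members with no matched window were Adamts4, Adamts5, Adamts6, Adamts7, Adamts8, Adamts10, Adamts15, Adamts16, Adamts19, Adamtsl1, Mmp2, Mmp9, Mmp16, Mmp17 and Mmp19.

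Inhibitor RNA outweighed protease RNA in every library. Per kilobase of merged exons, the 4 TIMP genes made up 61.7% of the summed level of all members, the MMP genes 21.7%, the ADAMTS genes 9.80% and the ADAMTSL genes 6.83%. Timp2 had the highest mean level at 359 CPM per kilobase, and Timp3 the next at 247. Against all 22649 genes with a length they ranked 109 and 185. The order of this pair depends on the length used, since per kilobase of the longest transcript Timp3 stood above Timp2. Mmp2 (gelatinase A) followed at 108 CPM per kilobase and made up 47.8% of the MMP sum. Neighbours in the order did not overlap in their 6 libraries at 5 steps: from Timp2 to Timp3, from Timp3 to Mmp2, from Mmp2 to Mmp23, from Adamts10 to Adamtsl2 and, near the bottom, from Mmp24 to Mmp25. All other neighbours with counts overlapped. The order further down depends on the length used as well. On the longest transcript Mmp14 was at 38.0 and Adamts10 at 35.8 CPM per kilobase, against 20.6 and 17.9 on merged exons. Both then stood above Timp1 at 34.3.

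Below Mmp2, 10 members stood between 17.9 and 45.2 CPM per kilobase. They were Mmp23 at 45.2, Adamtsl4 at 36.4, Timp1 at 34.1, Adamts1 at 26.2, Mmp3 at 24.9, Adamtsl5 at 21.8, Adamts8 at 21.3, the membrane-type protease Mmp14 at 20.6, the procollagen trimming enzyme Adamts2 at 20.4 and Adamts10, linked to fibrillin, at 17.9. With the top 3 they were the 13 members above 10 CPM per kilobase. A further 15 lay between 1 and 10, 12 between 0.1 and 1, and 7 above 0 but below 0.1. Other proteases known from inflammation or cartilage stood below these 13, with Mmp13 (collagenase-3) at 2.25, Mmp12 (macrophage elastase) at 1.59, Mmp9 (gelatinase B) at 1.38, Adamts4 (aggrecanase-1) at 0.712 and Adamts9 at 0.283 CPM per kilobase. Adamts5 (aggrecanase-2, which also cuts versican) was higher at 4.52. Beside the 4 genes at 0, 6 members did not pass the filter: Mmp10, Mmp21, Mmp25, Adamts13, Adamts16 and Adamts18. Adamts13, the von Willebrand factor protease, had 3 counts in control replicate 2 and 0 in the other 5 libraries, while Adamts18 had 7 and 11 counts in control replicates 1 and 2 and 0 elsewhere. Mmp8 was just inside the filter at 14, 12 and 7 counts in the controls and 15, 31 and 1 in the mutants.

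No member was called different between mutant and control valves. Across the 41 members tested, 0 were called at an adjusted p under 0.05 by edgeR's quasi-likelihood test, and over all 15354 genes the background was 0%. DESeq2 called 26 genes (0.169% of 15344), none of them a member. At an unadjusted p under 0.05, edgeR gave 1 member, Adamtsl1, lower in the mutants, or 2.44% of the 41 against a background of 3.45% of all genes in either direction and 1.86% lower. The 3 mutant libraries lay wholly above or below the 3 controls for 3 of 41 members (7.32%), against 8.88% of all genes tested. Of the 3, 1 was higher (Adamts14, background 4.06%) and 2 were lower (Adamtsl1 and Mmp16, background 4.82%). The log2 fold change of mutant over control was below 0 for 17 of 41 members (41.5%, against 47.8% of all genes). Its median was 0.04 over the members and 0.01 over all genes, and single members ranged from -0.65 to 0.98. These counts and the median lay near those of all genes.

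**Figure D2:**
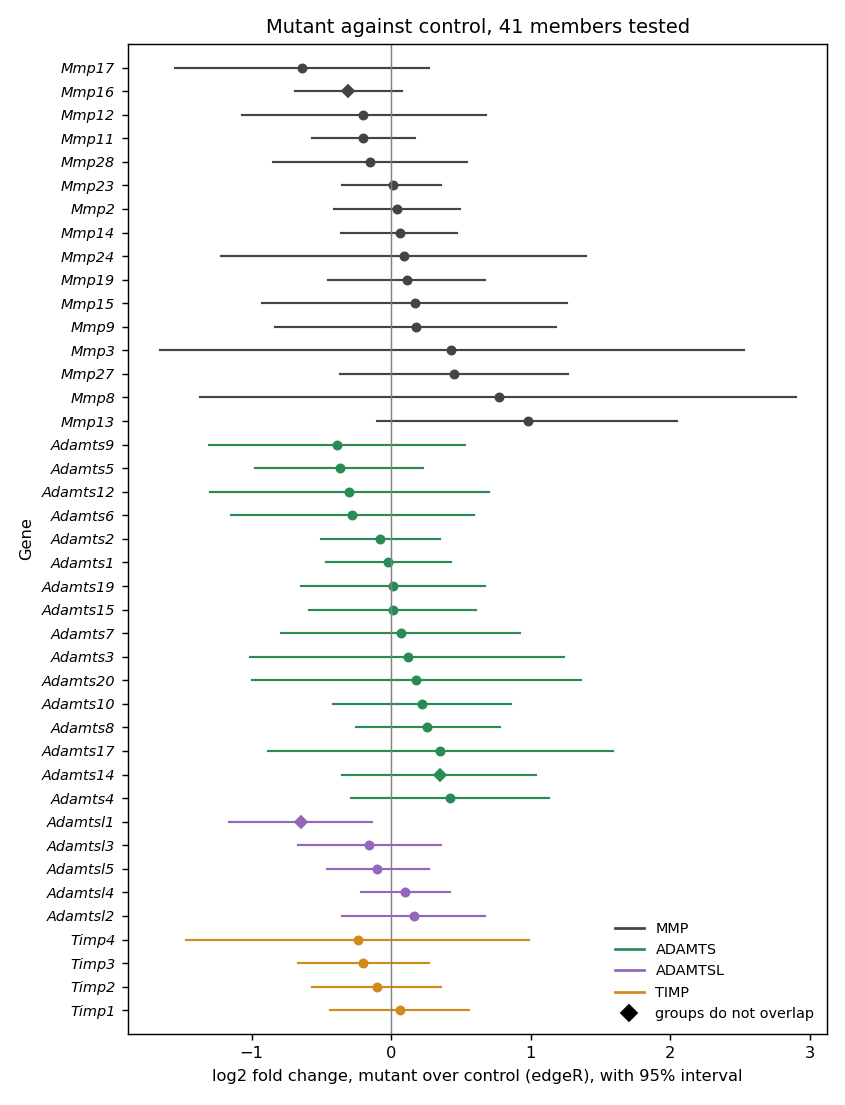
Log2 fold change of mutant over control for the 41 members tested (horizontal axis), grouped by family, with 95% intervals from the edgeR standard error as lines. The interval of Adamtsl1 is the 1 that leaves out 0.

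Adamtsl1 (punctin-1, chr4:85514172-86428385, plus strand) encodes a secreted matrix protein without protease activity. Its controls were at 16.9, 19.4 and 11.3 CPM and its mutants at 9.46, 10.9 and 9.91 CPM. Every mutant was below every control, though control replicate 3 lay near the mutants. The means were 15.9 ± 4.17 and 10.1 ± 0.738 CPM (SD, n = 3 each), a log2 difference of -0.65 (SE 0.22, 95% interval -1.16 to -0.14) with an edgeR adjusted p of 0.999. Without 1 library the value ran from -0.85 to -0.48, and the unadjusted p passed 0.05 without control replicate 1 or 2 or without mutant replicate 1 or 3. The adjusted p ranged from 0.601 with DESeq2 to 1.0 over the alternatives. Like the smooth muscle markers, Adamtsl1 was highest in control replicate 2 and lowest in mutant replicate 1, and the part of those cells in the value was not tested.

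Mmp16 and Adamts14 were the other 2 members whose groups did not overlap. Mmp16 (chr4:17852893-18119145, plus strand), a membrane-type protease that can activate the Mmp2 precursor, was at 9.63, 8.52 and 8.39 CPM in the controls and 7.53, 6.42 and 7.51 CPM in the mutants. All 6 values lay within a narrow range, with a log2 difference of -0.31 (SE 0.16, 95% interval -0.69 to 0.08) and -0.34 to -0.23 without any 1 library. Adamts14 (chr10:61197112-61273438, minus strand) trims procollagens as Adamts2 does. It was at 1.79, 1.84 and 1.84 CPM in the controls and 2.22, 1.85 and 2.91 CPM in the mutants, so mutant replicate 2 was level with the controls. Its log2 difference was 0.35 (SE 0.29, interval -0.35 to 1.04), but leaving out mutant replicate 3 gave 0.16 and leaving out mutant replicate 2 gave 0.49. For such a separation the exact permutation test gave p = 0.1 (two-sided), the smallest that 3 against 3 libraries allow.

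**Figure D3:**
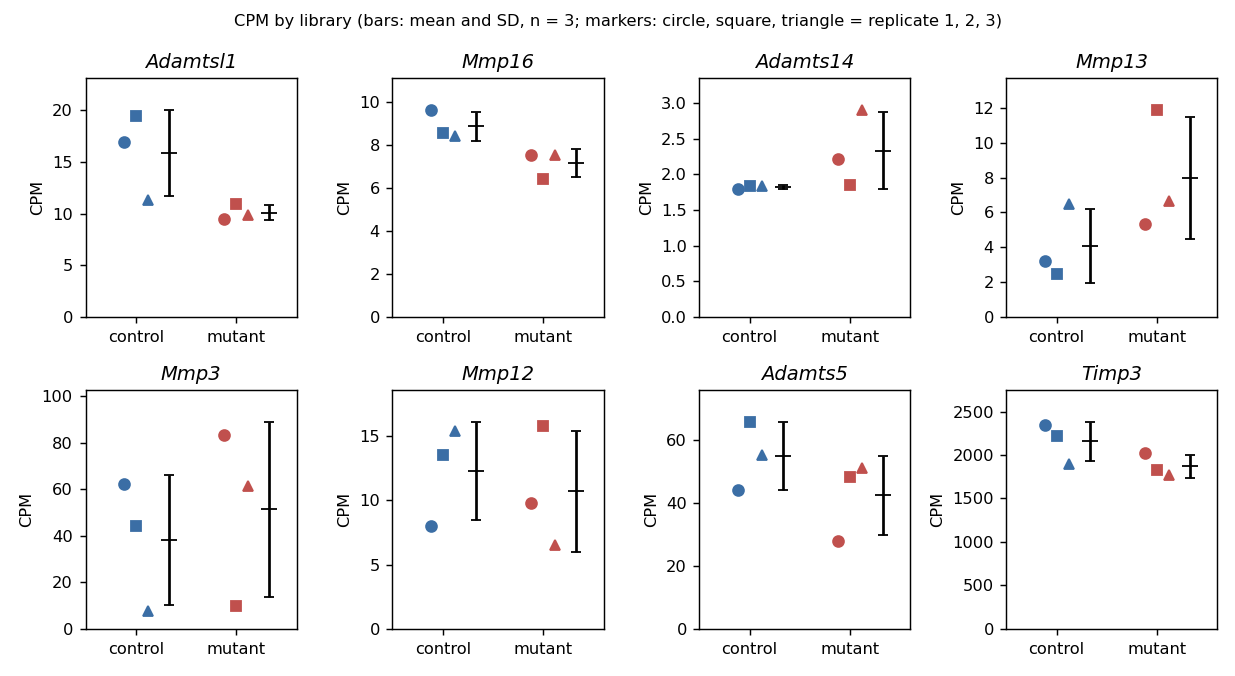
CPM of named members in each of the 6 libraries, with 1 panel per gene, a vertical axis of its own in each panel, and short lines at the group means. The groups of Adamtsl1, Mmp16 and Adamts14 do not overlap, while in the other panels control and mutant points share a range.

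Among the inhibitors, the matrix-bound Timp3 (chr10:86300372-86349506, plus strand) was at 2340, 2220 and 1900 CPM in the controls and 2020, 1830 and 1770 CPM in the mutants. The groups overlapped, since control replicate 3 was below mutant replicate 1, and the log2 difference was -0.20 (SE 0.20, 95% interval -0.67 to 0.27), below 0 without any 1 library. Timp2 (chr11:118301069-118355740, minus strand) both inhibits MMPs and helps Mmp14 to activate the Mmp2 precursor. It was at 1370, 1730 and 1250 CPM in the controls and 1300, 1330 and 1420 CPM in the mutants, a log2 difference of -0.10 (SE 0.20, interval -0.57 to 0.36). Timp1, on the X chromosome and known as an inducible inhibitor, was at 28.2, 23.3 and 37.4 CPM in the controls and 25.1, 31.8 and 36.1 CPM in the mutants. Timp4, the inhibitor best known from heart muscle, was at 8.38, 9.19 and 23.3 CPM in the controls and 6.47, 9.46 and 18.7 CPM in the mutants, with replicate 3 high in both groups. Leaving out 1 library moved the Timp4 value from -0.78 to 0.39, so its direction rested on which libraries were used. The mutants' mean summed TIMP level was 0.912 of the controls', 613 ± 10.5 against 672 ± 71.2 CPM per kilobase (SD, n = 3 each).

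The abundant MMPs did not separate the groups. Mmp2 (chr8:92827291-92853420, plus strand) was at 409, 282 and 387 CPM in the controls and 319, 359 and 429 CPM in the mutants. Its groups overlapped, and the 95% interval of the fold ran from 0.753 to 1.40, so a change smaller than that was not detectable with these libraries. Mmp23, a membrane-anchored protease without the usual hemopexin domain, was at 102, 117 and 97.4 CPM in the controls and 85.6, 112 and 121 CPM in the mutants. Mmp14, the membrane-type protease that activates the Mmp2 precursor, was at 100, 122 and 140 CPM in the controls and 111, 153 and 112 CPM in the mutants. It is named here after its values were seen, as are Mmp15 and Mmp17. The summed MMP level was 220 ± 18.8 CPM per kilobase in the controls and 232 ± 25.2 in the mutants (SD, n = 3 each). The ratio of the MMP to the TIMP sum was 0.359, 0.275 and 0.357 in the controls and 0.368, 0.348 and 0.415 in the mutants, overlapping.

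**Figure D4:**
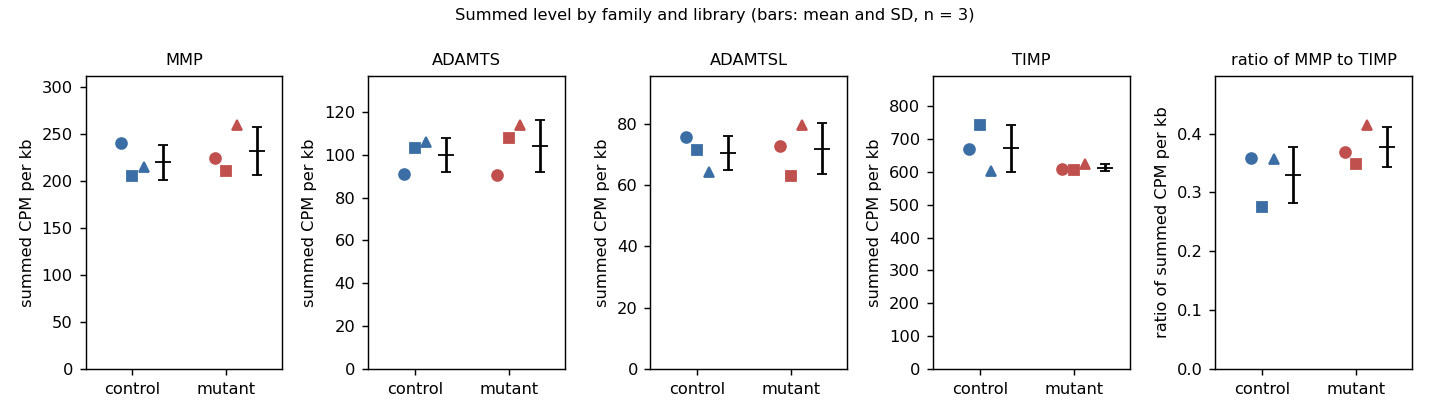
Summed level of the MMP, ADAMTS, ADAMTSL and TIMP genes in CPM per kilobase of merged exons in each library, with group means. The TIMP sum is above the MMP sum in each of the 6 libraries, and the control and mutant points of each family overlap.

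By the within-group SD of log2 CPM, Mmp3 was the tested member that varied most between libraries of a group. By highest over lowest library, Mmp8 varied more in the mutants, 25.1 times at 15, 31 and 1 counts. Mmp3 was at 62.3, 44.4 and 7.70 CPM in the controls and 83.3, 9.66 and 61.4 CPM in the mutants. In each group, 1 library was far below the other 2. The highest library was 8.10 times the lowest among the controls and 8.62 times among the mutants. The within-group SD of log2 CPM was 1.64, more than in 99.4% of genes tested, and its difference of 0.43 had a 95% interval of -1.66 to 2.53. Over the members, the median of that SD was 0.34, against 0.24 over all genes tested. At the low end stood Mmp16 at 0.12, Timp3 at 0.13, and Adamtsl4 and Mmp11 at 0.17 each.

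Mmp13, a collagenase of cartilage and bone, was at 3.21, 2.47 and 6.46 CPM in the controls and 5.31, 11.9 and 6.66 CPM in the mutants. Its log2 difference of 0.98 (SE 0.45, 95% interval -0.10 to 2.05) was the highest of the members, but mutant replicate 1 lay below control replicate 3. Its unadjusted p was above 0.05 with edgeR and below it with DESeq2, and its adjusted p was 0.999 with edgeR. Without mutant replicate 2 it was 0.56, and without control replicate 3 it was 1.49. Mmp9 was at 3.75, 7.53 and 2.47 CPM in the controls and 6.54, 4.68 and 4.32 CPM in the mutants, with full overlap. Mmp12, made by macrophages, was at 8, 13.5 and 15.4 CPM in the controls and 9.79, 15.8 and 6.51 CPM in the mutants, also overlapping. The summed macrophage markers did not overlap between the groups, at 1570, 1400 and 1480 CPM in the controls and 1850, 2010 and 1980 CPM in the mutants. Of the 7 macrophage markers tested, 5 did not overlap between the groups and 2 did, against 8.88% of all genes tested without overlap. Neither Mmp9 nor Mmp12 followed the order of the macrophage sums. Of the neutrophil markers, the precursor-stage genes Elane and Mpo were at or near 0 in every library, and the sums were 17.3, 5.16 and 5.03 CPM in the controls and 4.54, 22.9 and 15.0 CPM in the mutants.

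Mmp15 and Mmp17 shared their highest or lowest libraries with a marker list, but not the full order of its summed level. Mmp15, a membrane-type protease, was at 47.1, 19.3 and 65.1 CPM in the controls and 67.9, 29.7 and 50.2 CPM in the mutants. It was lowest in replicate 2 of each group, as were 8 of the 10 cardiac muscle markers. The same held for 5 of the 41 members tested (12.2%) and for 17.4% of all genes tested. Mmp17, anchored to the membrane by a lipid, was at 24.8, 52.3 and 21.6 CPM in the controls and 14.3, 21.6 and 27.4 CPM in the mutants, highest in control replicate 2 and lowest in mutant replicate 1. So were 6 of the 8 smooth muscle markers (not Des and Myocd), 6 of the 41 members tested and 8.74% of all genes tested. Its log2 difference was -0.64 with all libraries and -0.13 without control replicate 2. The part of these cells in the values was not tested.

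The ADAMTS proteases that cut versican and aggrecan gave no difference beyond their spread. Adamts1 was at 123, 152 and 146 CPM in the controls and 101, 158 and 155 CPM in the mutants, and its log2 difference of -0.02 had a 95% interval of -0.47 to 0.43. Adamts5 was at 44.0, 65.8 and 55.3 CPM in the controls and 27.9, 48.3 and 51.2 CPM in the mutants, with the same highest and lowest libraries as the smooth muscle markers. Its log2 difference was -0.37 (SE 0.25), -0.22 without control replicate 2, -0.14 without mutant replicate 1 and down to -0.53 without another library. Its edgeR adjusted p was 0.999, and 0.901 to 1.0 over the alternatives. Adamts4 was at 3.30, 2.87 and 2.62 CPM in the controls and 5.37, 3.52 and 2.88 CPM in the mutants. Adamts9, needed for versican turnover in the valves, was at 2.44, 5.38 and 6.68 CPM in the controls and 3.42, 4.45 and 3.16 CPM in the mutants. Adamts8 was at 90.1, 66.5 and 112 CPM in the controls and 120, 118 and 84.5 CPM in the mutants. Adamts2, a procollagen protease, was at 158, 219 and 209 CPM in the controls and 152, 187 and 216 CPM in the mutants. In each of these, control and mutant values overlapped. The summed ADAMTS level was 99.7 ± 7.97 and 104 ± 12 CPM per kilobase (SD, n = 3 each). Adamts1 and Adamts5 lie 53.1 kb apart on chromosome 16, and Adamts15 and Adamts8 20.1 kb apart on chromosome 9, on opposite strands.

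The groups overlapped in the 3 ADAMTSL genes of highest level. Adamtsl4 was at 146, 154 and 143 CPM in the controls and 163, 131 and 181 CPM in the mutants. Adamtsl5 was at 131, 101 and 87.2 CPM in the controls and 97.9, 101 and 99.7 CPM in the mutants. Adamtsl2 was at 62.8, 68.7 and 70.8 CPM in the controls and 75.9, 52.4 and 98 CPM in the mutants. The summed ADAMTSL level was 70.5 ± 5.64 and 71.8 ± 8.31 CPM per kilobase (SD, n = 3 each). Of the members, 10 share exon bases with an opposite-strand gene of the count table, and Adamts8, Adamts9 and Mmp7 share them with annotated genes outside it. Since the library kit does not mark strand, reads of such pairs cannot be told apart there. For Timp3 the shared bases (21.3% of its exons) belong to Syn3, which had only 17 to 103 counts against 56517 to 125333.

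The other genes of the pathway, in lists of activators, further inhibitors, receptors, other metalloproteases and substrates, numbered 71, of which 62 were tested. None was called at an adjusted p under 0.05 by edgeR, 5 (8.06%) had an unadjusted p under 0.05 against 3.45% of all genes, and 6 (9.68%) did not overlap between groups against 8.88%. In the 6 activating proteases tested, 1 was higher at an unadjusted p under 0.05. This was Plau (urokinase, which starts plasmin formation), at 0.317, 0.138 and 0.130 CPM in the controls and 0.405, 0.556 and 0.563 CPM in the mutants (6 to 22 counts a library). Pcsk7, a proprotein convertase, was at 34.0, 37.7 and 36.4 CPM in the controls and 39.3, 42.2 and 41 CPM in the mutants, also without overlap. Among the 11 further inhibitors, the proteoglycan Spock1 (testican-1) had 4, 2 and 4 counts in the controls and 24, 43 and 17 in the mutants, higher at an unadjusted p under 0.05 with an edgeR adjusted p of 0.999. It was the 1 gene of these lists that DESeq2 called (adjusted p = 0.0309, range over the alternatives 0.0309 to 1.0). Serpine2, a protease inhibitor bound to matrix, was at 220, 361 and 258 CPM in the controls and 153, 221 and 190 CPM in the mutants, lower at an unadjusted p under 0.05 but overlapping.

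Of the 10 receptors and clearance genes tested, 0 had an unadjusted p under 0.05. Of the 16 ADAM and astacin metalloproteases, 1 did, Adam12, at 1.92, 1.42 and 1.82 CPM in the controls and 0.656, 1.01 and 0.719 CPM in the mutants (log2 difference -1.11, SE 0.35). Of the 19 substrates tested, 15 had a log2 difference below 0 with a median of -0.245, against 47.8% below 0 of all genes. Of these only Reln, a secreted matrix protein cut by some ADAMTS enzymes, had an unadjusted p under 0.05, at 10.1, 15.2 and 10.6 CPM in the controls and 8.59, 5.46 and 7.41 CPM in the mutants (log2 difference -0.74, SE 0.24). Col4a1, a chain of basement membrane collagen, was at 536, 846 and 692 CPM in the controls and 437, 531 and 528 CPM in the mutants. Like the smooth muscle markers it was highest in control replicate 2 and lowest in mutant replicate 1, as were Eln (elastin), Acan (aggrecan), Col1a2 and Col3a1 of the same list. The part of smooth muscle or of other cells in these values was not tested. Acan was at 4.70, 20.8 and 6.46 CPM in the controls and 3.53, 6.30 and 5.22 CPM in the mutants, overlapping. Its log2 difference was -1.09 (95% interval -2.44 to 0.26). The paper reports higher Aggrecan protein in mutant valves, a level not measured here.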

How the data were processed

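RNA of aortic valves was sequenced in 6 libraries, 3 control and 3 mutant, grouped by their titles. The authors aligned the reads to mm10 with TopHat2 2.0.13 over Bowtie2 2.2.1 and counted them with Cuffdiff 2.1.1, per the labels, and the table they deposited holds estimated counts per gene with no further normalisation stated. The methods of the study name another Bowtie2 version. These estimated counts were rounded to whole numbers. Genes that reached 10 counts in 3 or more libraries were tested in R 4.3.3 with edgeR 4.0.16 (TMM, quasi-likelihood F test, Benjamini-Hochberg over all genes tested, threshold 0.05). The alternatives were DESeq2 1.42.0, upper-quartile scaling, no filter, a mean count of at least 100, limma-voom (limma 3.58.1) with and without sample quality weights, a replicate block, a sex term (libraries with Y-linked reads against those without, Xist not used, added after seeing the data) and leaving out each library. The scripts were tested on simulated data. Depth was 32218343 to 55728854 counts per library, and intervals are 95%. Gene lengths and positions came from a GRCm38 annotation (22649 of 23107 genes and all 51 members matched), promoters from RefSeq (GRCm38.p6); where a gene had several windows, the one nearest the gene start was used.

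Genes were named in full where their groups did not overlap or the unadjusted p was under 0.05, for the 3 highest of MMP, ADAMTS and ADAMTSL per length, for all TIMP genes, for Mmp9, Mmp12, Mmp13, Adamts4, Adamts5, Adamts9 and Adamts13, and for up to 3 non-overlapping genes per pathway list. The members and lists were chosen with earlier results of these data known. No test was run over a list, and no p is given for a sum.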

Additional observations from a re-analysis of the deposited data

How the results depend on the processing

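Under every alternative, 0 members passed an adjusted p of 0.05 (edgeR, limma and DESeq2), while edgeR gave 1 at an unadjusted p under 0.05. That count was 2 with DESeq2 (Mmp13 added), 2 with the replicate block and 2 with the sex term (Adamts5 added in both, at -0.4 and -0.41), 0 with sample quality weights and 0 to 2 without 1 library. The count of pathway genes, 5, was 2 at a mean count of at least 100 and 3 to 7 without 1 library, and the count of members with separate groups, 3, was 6 to 8, as fewer libraries separate more easily by construction. The family sums moved by less than the spread between replicates. Of the 41 members, 12 changed sign in a setting that kept all libraries: 11 with sample quality weights, 2 with limma-voom, 3 with the replicate block and 3 with the sex term, some in several. Among those named, these were, with sample quality weights, Mmp15 (-0.11), Adamts1 (0.041), Adamts2 (0.0063), Timp1 (-0.019) and Timp2 (0.019), and Mmp23 with the replicate block (-0.0035) and the sex term (-0.0062); the cause was not tested. Without at least 1 library, 29 changed sign. Among those named, the ranges without 1 library were -0.13 to 0.16 for Adamts1, -0.21 to 0.046 for Adamts2, -0.07 to 0.37 for Adamtsl2, -0.0052 to 0.22 for Adamtsl4, -0.22 to 0.08 for Adamtsl5, -0.59 to 0.06 for Mmp12, -0.11 to 0.18 for Mmp14, -0.19 to 0.57 for Mmp15, -0.11 to 0.14 for Mmp2, -0.1 to 0.14 for Mmp23, -0.1 to 0.98 for Mmp3, -0.12 to 0.74 for Mmp9, -0.08 to 0.26 for Timp1, -0.2 to 0.045 for Timp2 and -0.78 to 0.39 for Timp4. Whether replicate numbers pair the libraries is not stated in the sources used here, and correlations over 3 libraries per group cannot decide it. Same-numbered libraries correlated in their deviations at 0.289, 0.0822 and 0.0313. Control replicates 1 and 3 but not 2 correlated best with the mutant of their own number.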
